A study of Mus musculus with 17 samples.

Results

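The epithelial membrane protein family holds 4 genes on the array, Emp1, Emp2, Emp3 and Pmp22, and its members were taken as every probe that the array annotation assigns to these symbols. The 4 were among 19057 genes with a probe of their own, and this gave 6 of the 45281 probes, with 1 probe each for Emp1 and Emp2 and 2 probes each for Emp3 and Pmp22. All 6 passed the filter on dim probes, which 11897 probes with a unique gene symbol passed, standing for 8236 genes. The family was chosen by the values of Emp1 on these same arrays, in MI against sham mice and in MI+Val against MI mice. The group differences of the members are therefore given as a description, with every mouse or the range of each group, and no test of them is used as support. Where members past a threshold are counted, the count stands beside the share of all genes past it, and nothing is read from it.

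RNA came from the posterior and inferior wall of the left ventricle (LV), away from the infarct, of female C57/BL6 mice 4 weeks after surgery. The mice were 8-10 weeks old per the labels. There were 6 sham-operated mice, 6 mice with a myocardial infarction from coronary ligation that drank water only (MI), and 5 infarcted mice that received the angiotensin receptor blocker valsartan at 1 mg/kg/day in the drinking water (MI+Val). Infarcted mice entered the last 2 groups only if their ejection fraction 1 day after surgery lay in a set range, and mice that died were replaced, so both groups consist of survivors with a similar early loss of function. Each array measured bulk tissue, in which fewer cells of a type and less RNA per cell cannot be told apart.

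EMP1, EMP2, EMP3 and PMP22 are small proteins that cross the membrane 4 times and belong to the same superfamily as the claudins of tight junctions. PMP22 is a component of compact peripheral myelin made by Schwann cells, and changes in its gene dosage cause inherited neuropathies in humans, but its transcript is also found in many tissues without myelin. EMP1 is found at epithelial and endothelial cell contacts, EMP2 is known for its link to integrins, focal adhesion kinase and caveolin, and EMP3 is abundant in blood leukocytes.

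The promoters of 3 members are shown because these genes span the range of differences in MI vs. sham, from Emp1 (farthest from sham) through Emp3 to Emp2 (nearest). Sequences are RefSeq windows of GRCm38.p6, each running from 250 bases before to 50 bases after the outermost start that the table lists for the gene, and capitals mark the matches found for 4 motifs on either strand. The motifs searched were TGANTCA (bound by AP-1), GGGCGG (the GC box), TATAAA (the TATA box) and CATTCC (bound by TEAD factors), and no match in these windows overlapped a match to another motif.
Emp1, chr6:135362681-135362980, plus strand: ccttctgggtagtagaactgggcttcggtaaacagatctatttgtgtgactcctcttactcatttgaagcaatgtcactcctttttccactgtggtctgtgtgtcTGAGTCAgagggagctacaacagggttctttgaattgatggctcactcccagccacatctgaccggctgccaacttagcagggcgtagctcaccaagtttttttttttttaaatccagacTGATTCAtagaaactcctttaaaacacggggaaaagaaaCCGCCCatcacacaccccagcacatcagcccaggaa
Emp2, chr16:10313919-10314218, minus strand: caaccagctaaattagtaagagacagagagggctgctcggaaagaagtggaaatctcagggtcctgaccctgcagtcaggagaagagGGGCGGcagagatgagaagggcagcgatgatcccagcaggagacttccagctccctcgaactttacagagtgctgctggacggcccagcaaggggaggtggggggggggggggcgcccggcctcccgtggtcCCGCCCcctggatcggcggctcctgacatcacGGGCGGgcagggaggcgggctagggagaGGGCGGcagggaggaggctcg
Emp3, chr7:45921377-45921676, minus strand: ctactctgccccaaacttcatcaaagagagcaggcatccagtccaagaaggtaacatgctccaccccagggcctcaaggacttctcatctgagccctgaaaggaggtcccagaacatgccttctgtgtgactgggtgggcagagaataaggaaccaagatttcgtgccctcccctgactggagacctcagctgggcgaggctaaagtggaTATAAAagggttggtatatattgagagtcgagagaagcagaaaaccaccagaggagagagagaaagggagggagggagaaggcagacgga

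The Emp1 window held 2 AP-1 matches, starting at positions -145 and -25 relative to the start (the start base counted as 0), and 1 GC box at position 14. The Emp1 gene is annotated from base 135362550, ahead of this window, so the window lies inside the annotated gene. Its positions count from the listed start and do not place the matches upstream of the whole gene. An AP-1 match occurred in 7.81% of the 32851 promoter windows of the table. The Emp2 window had no AP-1 match but 4 GC boxes, a motif found in 35.7% of all windows. The Emp3 window had a TATA box at position -40, a motif found in 13.6% of windows, and no AP-1 match. Pmp22, on chromosome 11, had 4 listed starts, of which the outermost held a CATTCC match at position -173 (14.7% of all windows) and windows 2 and 4 each held 3 GC boxes, some of them overlapping each other. These matches describe letters in a window only, and the arrays measured no binding.

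The 17 arrays lay on 3 chips. Chip 1 held 4 MI mice with 1 sham and 1 MI+Val mouse, chip 2 held 3 sham, 1 MI and 2 MI+Val mice, and chip 3 held 2 sham, 1 MI and 2 MI+Val mice, so chip and group overlap in part. Median raw signal ranged from 90 to 120.3 over the arrays, and the array of MI mouse 1 was the dimmest. Signals below are log2 values after background correction and quantile normalization, differences are differences of group means on that scale, and SE is the standard error from the limma fit over all 3 groups. All 10 ventricular cardiomyocyte markers with a probe were measured, and their median difference was -0.13 in MI vs. sham. The atrial genes Myl7 (atrial myosin light chain) and Sln (sarcolipin) stood at background on 12 arrays, between 4.26 and 4.76, but were detected in 5 mice, at 7.89 to 11.94 for Myl7 and 7.92 to 12.16 for Sln. These 5 were 2 sham mice (5 and 6), 1 MI mouse (5) and 2 MI+Val mice (4 and 5), so the labelled LV wall of these mice carried atrial transcripts. On chip 3 every sham and MI+Val mouse was among them, while MI mouse 6 was not. On chip 2 the only MI mouse was among them, and chip 1 held none. Comparisons with MI within chips 2 and 3 therefore set mice with atrial transcripts against mice without. The parts of chip and atrial tissue cannot be told apart there. Leaving the 5 out removes every sham and MI+Val array of chip 3 and the MI array of chip 2. Of the myelin markers of Schwann cells, 10 of 13 had a probe and Mal alone passed the filter, with Mag, Sox10 and S100b below it. Mal (a myelin and lymphocyte protein) had 0.52 in MI vs. sham (SE 0.17, adjusted p = 0.080 in limma) and -0.24 in MI+Val vs. MI, and the part of Schwann cells in the Pmp22 values was not tested.

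Emp1 was higher in MI than in sham mice and lower in MI+Val than in MI mice, with no overlap between the groups in either comparison. Its normalized log2 signal in sham mice had a lowest value of 10.68, a median of 10.80 and a highest value of 11.27. The MI mice ran from 11.56 through a median of 11.75 to 11.94, so that the lowest MI mouse lay above the highest sham mouse. The MI+Val mice had 10.76, 11.28, 11.07, 11.29 and 11.16 (mice 1 to 5). All 5 lay below the lowest MI mouse, and 2 of them lay just above the highest sham mouse while mouse 1 lay within the lower part of the sham range.

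The group means of Emp1 were 10.87 ± 0.22 in sham (SD, n = 6), 11.76 ± 0.12 in MI (SD, n = 6) and 11.11 ± 0.22 in MI+Val mice (SD, n = 5). MI mice were 0.88 higher than sham mice on the log2 scale (SE 0.11), which is 1.84-fold, the 68th of 8236 genes by size of the difference. MI+Val mice were 0.64 below MI mice (log2 difference -0.64, SE 0.12), at 0.64 of the MI level and the 44th of 8236 genes by size. Both comparisons use the same MI mice, so the fall is measured from the same level as the rise. MI+Val minus sham was 0.24 (SE 0.12), and the MI+Val mean had covered 72.9% of the way from the MI to the sham mean.

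The separation of Emp1 was present after normalization but not in the raw signal. Raw Emp1 signal ranged from 1744.8 to 2499.7 in sham, from 2079.3 to 5248.3 in MI and from 1531 to 2775.4 in MI+Val mice. The lowest MI value came from MI mouse 1, the dimmest array, and the highest from MI mouse 4, whose array had the highest 75th percentile of signal (184.4, against 117.9 for mouse 1). In the deposited values, which the authors normalized by another method, the MI vs. sham difference was 0.86 and the MI+Val vs. MI difference was -0.62.

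Within chips, Emp1 in MI vs. sham was 0.44 on chip 1, 0.97 on chip 2 and 1.14 on chip 3. MI+Val vs. MI was -0.95, -0.59 and -0.71 on the 3 chips. The direction was thus the same on each chip in both comparisons, although each of these values has a lone mouse on at least 1 side. On chips 2 and 3 the sides also differed in atrial transcripts. MI+Val vs. sham was -0.51 on chip 1, where each of these groups had a lone mouse, and 0.39 and 0.42 on chips 2 and 3. Without the 5 mice with atrial transcripts, MI vs. sham was 0.85 (SE 0.14, 5 against 4 mice) and MI+Val vs. MI was -0.72 (SE 0.16, 3 against 5 mice), again with no overlap between groups in either.

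**Figure D1:**
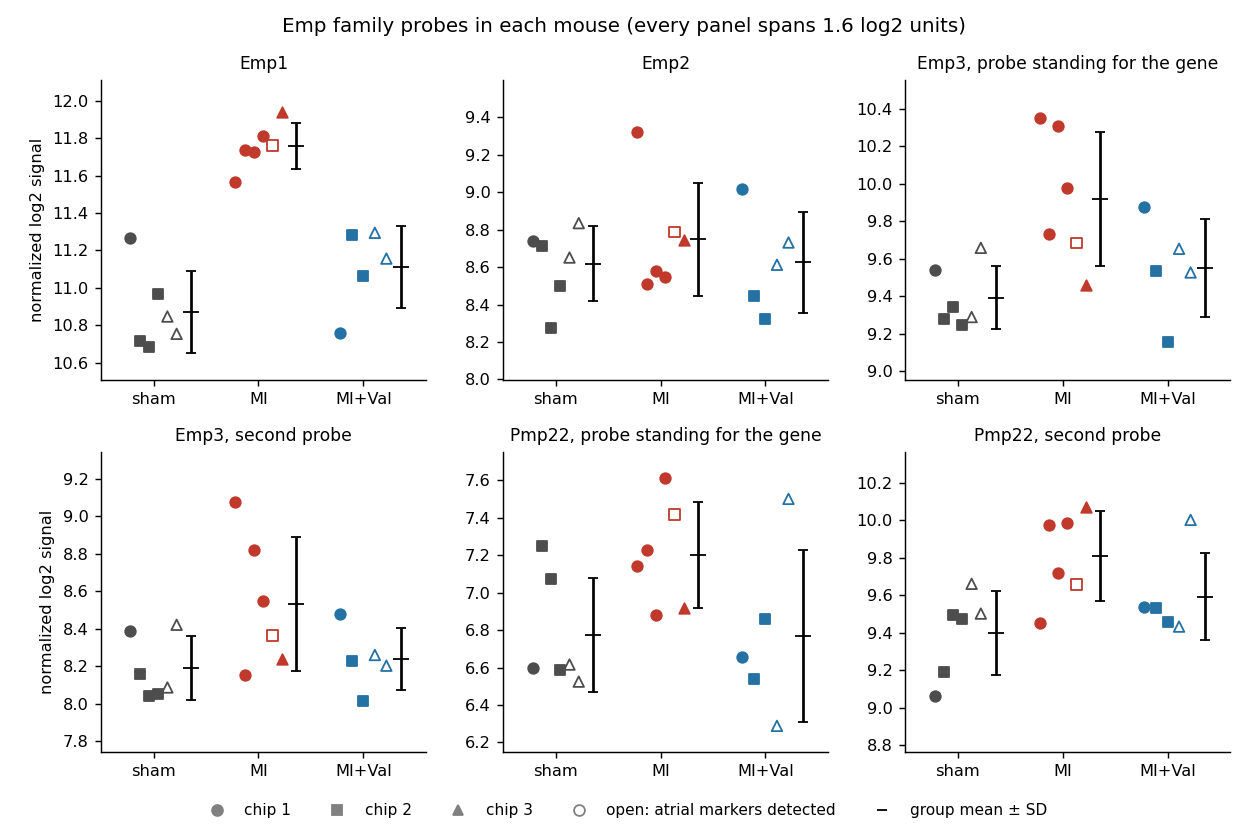
Normalized log2 signal (vertical axis) of the 6 Emp family probes in each mouse by group, with the marker shape for the chip, open symbols for the 5 mice with atrial transcripts, and the group mean ± SD beside each group. For Emp1 the 6 MI mice (11.56 to 11.94) lie above all sham mice (up to 11.27) and all MI+Val mice (up to 11.29), whereas the groups overlap for every other probe.

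Emp2 differed least of the 4 members in MI vs. sham and in MI+Val vs. MI. In sham mice its lowest, median and highest values were 8.28, 8.68 and 8.83. In MI mice they were 8.51, 8.66 and 9.32. The MI+Val mice had 9.02, 8.45, 8.32, 8.61 and 8.73. The 3 ranges overlapped, and the means were 8.62 ± 0.20 (SD, n = 6), 8.75 ± 0.30 (SD, n = 6) and 8.63 ± 0.27 (SD, n = 5).

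The Emp2 difference was 0.13 (SE 0.14) in MI vs. sham and -0.12 (SE 0.15) in MI+Val vs. MI. It was 0.01 (SE 0.15) between MI+Val and sham mice, and each of the 3 was smaller than its standard error. MI mouse 1 held the highest Emp2 value, and without it MI vs. sham was 0.02. Its raw Emp2 signal was 483.4, inside the sham range of 392.8 to 537.8, so that it stood out only after normalization of this dim array. Within chips, MI+Val vs. MI was 0.28 on chip 1, -0.40 on chip 2 and -0.07 on chip 3, with no common direction.

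Mean Emp3 was higher in MI than in sham mice on both of its probes, but the groups overlapped. On the probe standing for the gene, sham mice ran from 9.25 through a median of 9.32 to 9.66. The MI mice were at 10.35, 9.73, 10.31, 9.98, 9.68 and 9.46 (mice 1 to 6). The MI+Val mice were at 9.88, 9.54, 9.16, 9.65 and 9.53. In all, 5 of 6 MI mice lay above every sham mouse, MI mouse 6 was the exception, and all 5 MI+Val mice lay below the MI mean of 9.92.

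Mean Emp3 signal was 9.39 ± 0.17 in sham (SD, n = 6), 9.92 ± 0.36 in MI (SD, n = 6) and 9.55 ± 0.26 in MI+Val mice (SD, n = 5). MI vs. sham was 0.53 (SE 0.15), a 1.44-fold difference, and MI+Val vs. MI was -0.37 (SE 0.16). The MI+Val mean had covered 69.9% of the way back to sham. The second Emp3 probe gave smaller differences in the same direction, 0.34 (SE 0.14) and -0.30 (SE 0.15). On this probe 3 of 6 MI mice lay above every sham mouse.

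The Emp3 difference was not the same on all chips. In MI vs. sham it was 0.55 on chip 1, 0.40 on chip 2 and -0.01 on chip 3. There MI mouse 6 stood against sham mice 5 and 6, which both carried atrial transcripts. MI+Val vs. MI was -0.22 on chip 1, -0.34 on chip 2 and 0.13 on chip 3. Chip 1, which held 4 of the 6 MI mice, also carried the highest MI+Val value (mouse 1, 9.88), and with chip as a fixed block in the fit the differences were 0.32 in MI vs. sham and -0.19 in MI+Val vs. MI. With chip as a random block they were 0.50 and -0.35. Without the 5 mice with atrial transcripts they were 0.62 (SE 0.19) and -0.44 (SE 0.20).

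**Figure D2:**
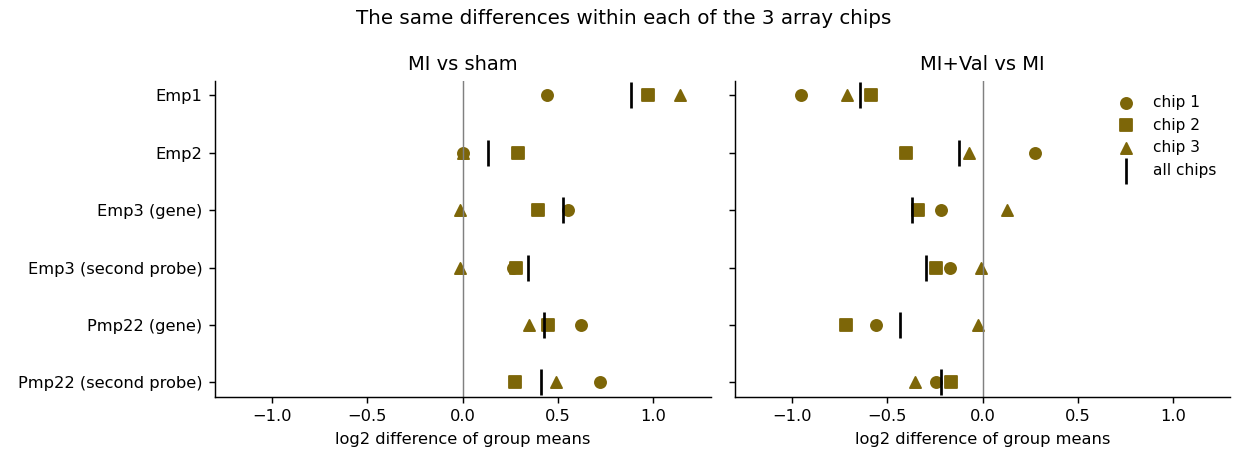
Log2 differences of group means (horizontal axis) for each Emp family probe within chip 1, 2 and 3 (markers) and over all chips (vertical bars), for MI vs. sham (left) and MI+Val vs. MI (right). Emp1 has the same sign on each chip in both comparisons, whereas Emp3 falls to -0.01 on chip 3 in MI vs. sham.

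EMP3 is abundant in leukocytes, and markers of macrophages were therefore examined. Of 14 such markers 13 had a probe and 11 were measured, and 6 of the 11 rose in MI vs. sham while 0 fell (limma, adjusted p over all genes), with a list median of 0.53 against -0.01 for all genes. Of all genes 3.31% rose and 2.32% fell by this rule. Lyz2 (lysozyme) was 0.77 higher (SE 0.15, adjusted p = 0.00491), and the complement genes C1qa and C1qb were 0.53 (SE 0.13, adjusted p = 0.0228) and 0.57 (SE 0.15, adjusted p = 0.0295) higher, followed by Cd14 at 0.51 (SE 0.14, adjusted p = 0.0307). Without the 5 mice with atrial transcripts 2 of the 11 passed. In MI+Val vs. MI the list median was -0.26, and 0 of the 11 passed there or in MI+Val vs. sham.

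The summed linear level of the 11 macrophage markers ranged from 3661 to 5241 in sham, from 5718 to 10033 in MI and from 4952 to 6622 in MI+Val mice. The 3 mice with the highest sums, MI mice 3, 4 and 1 (10033, 8112 and 7550), were also the 3 with the highest Emp3 signal, and all 3 were on chip 1. Other mice did not match in this way. MI+Val mouse 1, also on chip 1, had an Emp3 signal of 9.88 with a sum of 5370. MI+Val mouse 5 had an Emp3 signal of 9.53 with a sum of 6622. The Emp3 signals and sums here are after normalization. On the dimmest array, MI mouse 1, raw Emp3 signal was 918.4, with MI mice at 792.5 to 1600.9 and sham mice up to 871. On the second probe its raw signal was 418.6, inside the sham range of 342.4 to 429.7. The parts of macrophage content and array brightness in the Emp3 values were not tested.

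Pmp22, the myelin protein gene, was higher in MI than in sham mice on both probes by a similar amount, with overlapping groups. The brighter probe had a lowest value of 9.06, a median of 9.48 and a highest value of 9.66 in sham mice. In MI mice these were 9.45, 9.85 and 10.07. In MI+Val mice the values were 9.54, 9.53, 9.46, 9.43 and 10.00. In all, 4 of 6 MI mice lay above every sham mouse, and 4 of the 5 MI+Val mice clustered near 9.5 while mouse 5 stood with the MI mice.

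On this probe the means were 9.40 ± 0.22 in sham (SD, n = 6), 9.81 ± 0.24 in MI (SD, n = 6) and 9.59 ± 0.23 in MI+Val mice (SD, n = 5). MI vs. sham was 0.41 (SE 0.13), a 1.33-fold difference, and was 0.72, 0.27 and 0.49 on the 3 chips. MI+Val vs. MI was -0.22 (SE 0.14), with -0.24, -0.16 and -0.35 within chips. The MI+Val mean had covered 52.6% of the way back to sham on this probe.

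The dimmer Pmp22 probe varied more and, by the rule on the most variable probe, stood for the gene. Sham mice ran from 6.52 through a median of 6.61 to 7.25, and MI mice from 6.88 through 7.19 to 7.61. The MI+Val mice were at 6.66, 6.54, 6.86, 6.29 and 7.50. MI vs. sham was 0.43 (SE 0.18) and MI+Val vs. MI was -0.43 (SE 0.19), while in the deposited values of the authors these were 0.18 and -0.17. Without background correction they were 0.25 and -0.25, so the size of the difference on this probe depended on how background was handled.

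The dimmer probe placed the MI+Val mean at 101% of the way to sham, against 52.6% for the brighter probe. Both probes had MI+Val mouse 5 as the highest of its group. Without the 5 mice with atrial transcripts, of which this mouse is a member, the brighter probe gave 0.54 (SE 0.14) in MI vs. sham and -0.33 (SE 0.15) in MI+Val vs. MI. The dimmer probe then gave 0.28 (SE 0.17) and -0.47 (SE 0.19).

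Pmp22 was first known as a growth arrest gene of fibroblasts, and markers of these cells were examined. Of all genes 3.31% rose and 2.32% fell in MI vs. sham at the threshold, with a median of -0.01. All 14 listed fibroblast genes had a probe and 11 were measured, of which 2 rose and 0 fell in MI vs. sham, with a list median of 0.37. The 2 were transcription factor genes, Meox1 at 1.35 (SE 0.19, adjusted p = 2.40e-04) and Tcf21 at 0.70 (SE 0.15, adjusted p = 0.0103). The summed level of the 11 genes ranged from 2991 to 3491 in sham, from 3751 to 4440 in MI and from 3084 to 4265 in MI+Val mice, so that sham and MI mice did not overlap in this sum. The count and the sum read Dcn by a dim probe (log2 mean of 6.26 in sham), the most variable of its 4. The brightest Dcn probe had a 33rd percentile of raw signal of 7520 and does not enter them. The median in MI+Val vs. MI was -0.14, with 0 of the 11 past the threshold and 3 of the 11 differences above 0. The part of fibroblast content in the Emp1 and Pmp22 values was not tested. Of 11 endothelial markers 9 were measured, and 0 passed the threshold in MI vs. sham (median 0.03).

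**Figure D3:**
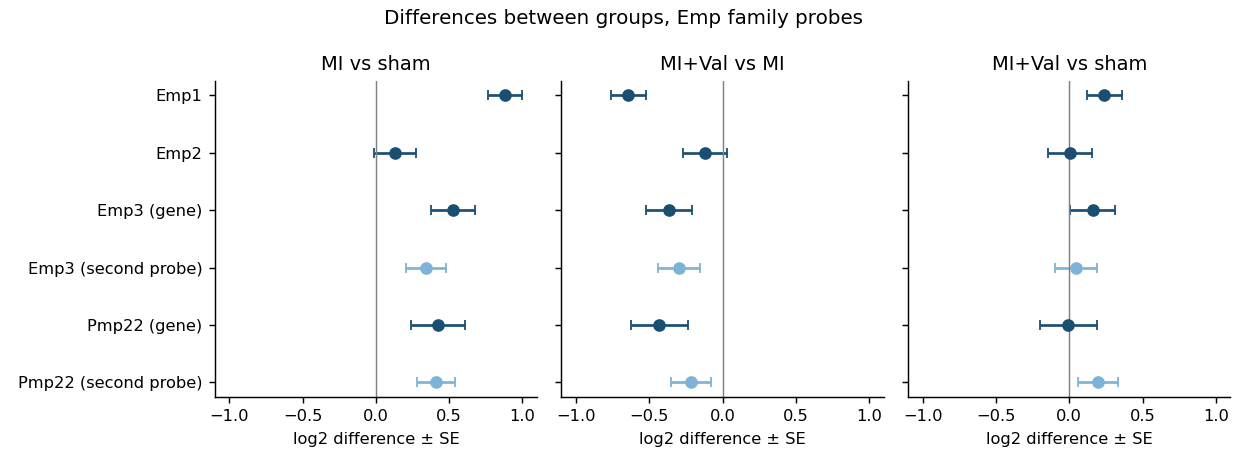
Log2 difference between groups ± SE (horizontal axis) for each Emp family probe in the 3 comparisons of groups (panels), with the probe that stands for a gene in dark blue and second probes in light blue. Emp1 shows the largest difference of the 6 probes in the first panel (0.88) and in the second panel (-0.64), and Emp2 the smallest in both (0.13 and -0.12).

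Taking the 4 genes side by side, all 4 differences were above 0 in MI vs. sham (median 0.48, against -0.01 for all genes) and all 4 were below 0 in MI+Val vs. MI (median -0.40, against 0.00 for all genes). Both sets are measured from the same 6 MI mice. Here and in the next paragraph Pmp22 is counted by its dimmer probe, on which the size of the difference depended on background handling. In MI vs. sham, 2 members (Emp1 and Emp3) passed an adjusted p of 0.05 in limma in the higher direction, where 3.31% of all genes did, and 5.63% did in either direction. The Emp3 call was lost with either chip block. It held in 7 of 14 alternatives, these blocks among the 14, and in 8 of 17 fits with a mouse left out. The groups did not overlap for 1 member, Emp1, where 3.55% of all genes had this pattern. This comparison was among those that chose the family, so nothing is read from these counts.

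In MI+Val vs. MI, 0 members passed, as did 0% of all genes in limma, although 760 genes (9.23%) had an unadjusted p under 0.05, 3 of the 4 members among them. Pmp22 was 1 of these 3, whereas its brighter probe had an unadjusted p of 0.127 in limma. The groups did not overlap for Emp1 alone among the members, where 1.12% of all genes had such a pattern. In MI+Val vs. sham, 0 members passed, against 0.0121% of all genes, and the groups overlapped for each member, where they were apart for 0.777% of all genes. The 4 differences there ran from -0.01 (Pmp22) to 0.24 (Emp1), and the brighter Pmp22 probe had 0.20. In the comparison of all 3 groups by the F test at an adjusted p of 0.10, Emp1 alone among the members passed, as did 4.8% of all genes. Emp1 in MI+Val vs. MI also chose the family and MI+Val vs. sham and the F test share its mice, so nothing is read from these counts either.

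How far the members varied together from mouse to mouse was examined with the group means removed, a measure that the choice of the family did not use. The 15 pairs among the 6 probes were tested over the 17 arrays by 100000 permutations of mice within groups, two-sided, with Benjamini-Hochberg adjustment over the 15 pairs. Both Emp3 probes followed each other closely, with Pearson's r of 0.92 (permutation p = 6.0e-05, adjusted p = 9.0e-04) and Spearman's rho of 0.96 (permutation p = 2.0e-05, adjusted p = 3.0e-04). Without the 2 arrays farthest from the median r was 0.96, and with chip means also removed it was 0.89. Mouse-to-mouse differences in Emp3 were thus seen by both probes.

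Both Pmp22 probes shared much less, with r of 0.27 (permutation p = 0.315, adjusted p = 0.467) and rho of 0.12 (permutation p = 0.670, adjusted p = 0.718). With chip means also removed r was 0.45, and without the 2 farthest arrays it was 0.04. Emp1 had no clear partner in the family: its r with the other 5 probes was at or below 0, down to -0.30, with permutation p of 0.223 or more and no adjusted p below 0.467. Emp2 and the second Emp3 probe had r of 0.70 (permutation p = 0.00424, adjusted p = 0.0318), but rho was 0.56 (permutation p = 0.0251, adjusted p = 0.188). Without the 2 arrays farthest from the median of Emp2 r was 0.41, so the relation was weaker without those arrays. With chip means also removed, over all 17 arrays, r was 0.66. Emp2 and the other Emp3 probe had r of 0.55 (permutation p = 0.0440, adjusted p = 0.1997). MI mouse 1, the dimmest array, was the highest MI mouse for Emp2 and on both Emp3 probes, and array brightness as a part of this relation was not tested.

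**Figure D4:**
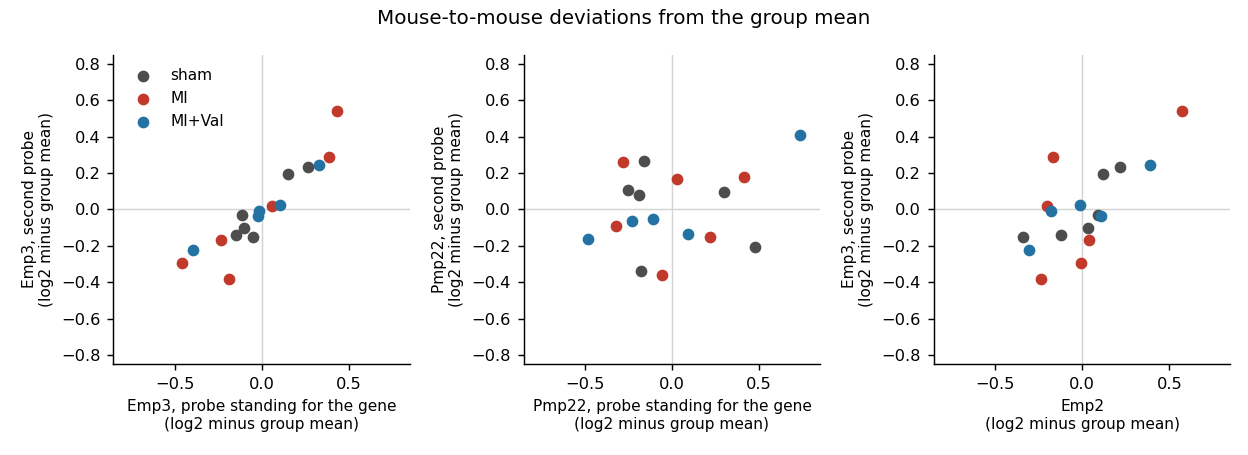
Deviation of each mouse from its group mean in log2 units for the probes of Emp3 (left), the probes of Pmp22 (middle), and Emp2 against the second Emp3 probe (right), coloured by group. The Emp3 probes fall along a line (r = 0.92) and the Pmp22 probes scatter (r = 0.27). The relation on the right (r = 0.70) has an MI mouse at the top, and r was 0.41 without the 2 arrays farthest on Emp2.

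The genes whose pattern was most like that of each member were taken by Pearson's r over all 17 arrays among 8235 other genes, a description in which the arrays share the group differences. For Emp1 these were Mllt11 (r = 0.90), Col8a1 (r = 0.88), Fstl1 (r = 0.87), Ccdc68 (r = 0.87) and Acta1 (r = 0.86). Col8a1 encodes a short-chain collagen, Fstl1 a secreted glycoprotein related to follistatin and Acta1 the skeletal muscle actin of the fetal and stressed heart. All 5 were above sham in MI, by 0.57 to 1.99, and below MI in MI+Val mice. With group means removed, other genes came first for Emp1 (Ndufa8, r = 0.83, then Ap3m1, Fbxw4, Cideb and Cnn2 at 0.77 to 0.76), for which MI vs. sham ran from -0.17 to 0.11.

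For Emp2, Tmem86a, Ift122 and Edem2 came first both before (r = 0.87, 0.84 and 0.84) and after group means were removed (r = 0.89, 0.87 and 0.86). For Emp3 the order began with Cib1 (r = 0.90), Cd40 (r = 0.89), a receptor of antigen-presenting cells, and Capg (r = 0.88), a capping protein of macrophages. After group means were removed it began with Rassf5 (r = 0.92), Ogfod2 and Smdt1. For Pmp22 the dimmer probe was used, which followed the brighter one only weakly (r = 0.27 with group means removed), and the brighter one was not examined in this way. On the dimmer probe Grn (progranulin) had r of 0.89 and remained among the first 3 with group means removed (r = 0.87). It stood next to Atp6v0d1 and Man2a1 before and to Rora and Slc25a34 after. None of these genes is on the lists of relatives, partners or markers used here.

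None of the other measured members of the claudin superfamily passed the threshold between groups. Of 38 listed relatives 36 had a probe and 7 passed the filter on dim probes, namely Cldn5, Cldn9, Cldn12, Cldn15, Cldnd1, Gsg1l and Tmem182. In MI vs. sham 0 of the 7 passed the threshold in either direction, 2 of the 7 differences were above 0, and the median was -0.14. Cldn5, the claudin of endothelial tight junctions, had 0.35 (SE 0.23, adjusted p = 0.434). Tmem182, a muscle membrane protein named here after its values were seen, had -0.33 (SE 0.10, adjusted p = 0.0509), just outside the threshold. In MI+Val vs. MI 0 of 7 passed and the median was -0.04.

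The same held for a list of partners of the family and genes linked to it, Vegfa and Hif1a among the latter. Of 16 listed genes 14 had a probe and 6 were measured, namely Itgb1, the integrin beta subunit linked to EMP2, Cav1 (caveolin), Tjp1 (the tight junction protein ZO-1), Rer1 (which takes part in the retention of PMP22 in the early secretory pathway), Vegfa and Hif1a. None of the 6 passed in MI vs. sham, where their differences ran from -0.31 to 0.28 with a median of 0.17, or in MI+Val vs. MI, where they ran from -0.16 to 0.29 with a median of 0.03. Vegfa and Rer1 were read by dimmer probes (log2 means of 8.54 and 6.98 in sham) than their brightest, whose 33rd percentiles of raw signal were 2160 and 548. P2rx7, the purinergic receptor known to bind EMP and PMP22 proteins, had 5 probes, none of which was detected on any array at a detection p under 0.01.

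**Figure D5:**
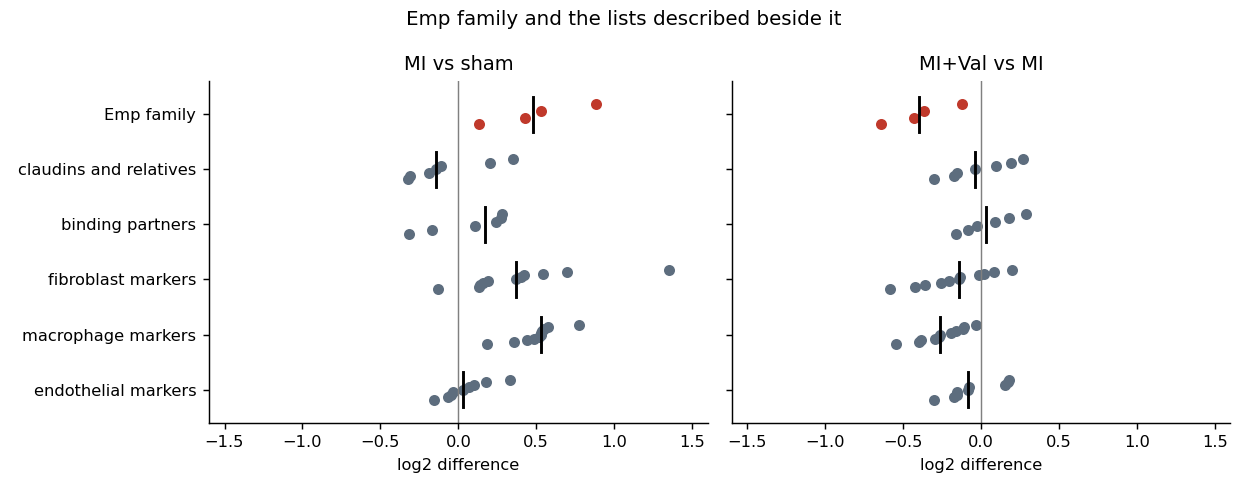
Log2 difference (horizontal axis) of each measured gene in the Emp family and in 5 lists of relatives, partners and cell type markers (rows), with the list median as a vertical bar, for MI vs. sham (left) and MI+Val vs. MI (right). The row of binding partners also holds the linked genes Vegfa and Hif1a. In MI vs. sham the medians were 0.48 (Emp family), 0.53 (macrophage markers), 0.37 (fibroblast markers) and -0.14 (claudins and relatives). The family was chosen by Emp1 in these 2 comparisons, so nothing is read from where its median lies.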

How the data were processed

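Total RNA of 17 mice was hybridized to Illumina mouse BeadChips. The authors deposited raw signal intensity per probe with detection p-values, and log2 values made by variance stabilizing transformation and robust spline normalization with lumi in R 3.0.1. Here the raw intensities were background-corrected and quantile-normalized by neqc (limma 3.58.1 in R 4.3.3, offset 16, background from the deposited detection p-values), and the authors' log2 values served as an alternative. Following the study's methods, probes with a 33rd percentile of signal under 125 were left out. The study's further filter on log-variation was not applied. The most variable probe by interquartile range stood for a gene.

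Groups were compared by limma across 8236 genes with Benjamini-Hochberg adjustment, checked on simulated data. Two-sided permutation tests, promoter searches and figures used Python 3.11.15, scipy 1.17.1 and matplotlib 3.10.9. The members and gene lists were chosen with earlier results of these data known. Named genes were the members, per list up to 4 genes past the threshold, and the 5 (Emp1) or 3 genes most like each member. Nothing ties a replicate number to a shared litter or day, so no pairing was assumed. Array number limits the precision. Genes are named from the platform annotation, updated by gene ID, and 34885 of 45281 probes had a unique symbol. Lymphocyte, smooth muscle, mesothelial and blood markers were also listed: 0 of 6, 7 of 9, 1 of 9 and 2 of 3 were measured, and 0 passed the threshold in any comparison.

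Alternatives were the background correction and offset, the scaling, the dim-probe filter, the probe per gene, chip or replicate number as a block, array weights, fits of the compared groups only, the methods' t-test, leaving out each mouse, and, chosen after seeing the data, leaving out the 5 mice with atrial transcripts and the second probes of Emp3 and Pmp22 with a chip block.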

Additional observations from a re-analysis of the deposited data

Results flagged for a closer look

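Of the 18 sets made by 6 probes and 3 groups, 2 held a mouse far from the rest of its group, where chance alone flags about 1 set in 20. MI mouse 1 had an Emp2 signal of 9.32, with the other MI mice at 8.51 to 8.79. MI+Val mouse 5 had a signal of 10.00 on the brighter Pmp22 probe, with the other MI+Val mice at 9.43 to 9.54. Raw signals were 483.4 for the first and 954.8 for the second, on the dimmest array of the MI and of the MI+Val group by 75th percentile (117.9 and 135.1). MI+Val mouse 5 was also among the 5 mice with atrial transcripts, and no part of either fact in these values was tested.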

How the results depend on the processing

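Every member kept the direction of its difference between MI and sham and between MI+Val and MI mice when any mouse was left out and under all other fits tried, except within chips. Leave-one-out ranges in MI vs. sham were 0.84 to 0.96 (Emp1), 0.02 to 0.18 (Emp2), 0.44 to 0.62 (Emp3) and 0.34 to 0.52 (Pmp22). In MI+Val vs. MI they were -0.69 to -0.56, -0.22 to -0.01, -0.46 to -0.27 and -0.61 to -0.31. Within chips, values that moved by over 1 SD were Emp1 in MI vs. sham (0.44 on chip 1 and 1.14 on chip 3), in MI+Val vs. MI (-0.95 on chip 1) and in MI+Val vs. sham (-0.51 on chip 1), Emp2 in MI+Val vs. MI (0.28 and -0.40 on chips 1 and 2) and in MI+Val vs. sham (0.28 on chip 1), Emp3 in MI+Val vs. MI (0.13 on chip 3) and Pmp22 there (-0.023 on chip 3). Emp3 in MI vs. sham turned to -0.014 on chip 3, and the cause was not tested.

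Of the members, 1 in place of 2 passed in MI vs. sham with array weights, either chip block, the methods' t-test, no filter, only the compared groups, or without the mice with atrial transcripts, and 1 to 2 passed with a mouse left out, Emp3 being the call lost (without MI mice 1, 2, 3 or 4, sham mice 2, 3, 4 or 5, or MI+Val mouse 2). In MI+Val vs. MI 1 in place of 0 passed (Emp1) with array weights, the deposited values, the larger offset or no background correction, and 0 to 1 with a mouse left out, the 1 being without MI+Val mouse 5 or sham mouse 1.

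Over all genes, chip as a fixed block gave 193 genes by the F test (main 395) and 187 in MI vs. sham (main 464), chip as a random block 368 and 431, and leaving out the mice with atrial transcripts gave 193 and 197, with 4 in MI+Val vs. MI and 0 in MI+Val vs. sham. With a mouse left out the counts were 226 to 454 by the F test, 259 to 521 in MI vs. sham, 0 to 14 in MI+Val vs. MI (14 without MI+Val mouse 5) and 0 to 3 in MI+Val vs. sham. MI+Val vs. MI (main 0) had 7 with array weights or an offset of 50, 9 with deposited values or no background correction, and 1 with the brightest probe, every probe or 75th percentile scaling. MI+Val vs. sham (main 1) had 3, 5, 2, 4, 3, 2, 2 and 2 with array weights, deposited values, the brightest probe, the fixed chip block, every probe, an offset of 50, no background correction and 75th percentile scaling, and 0 with the detection filter, the methods' t-test, only the compared groups, or the replicate block. The methods' t-test at its own threshold called 695, 198 and 129 genes, and 338, 0 and 0 after Benjamini-Hochberg adjustment. It was run here on all measured genes, without the study's F test before it or its fold change cut after it. Of 16 same-numbered pairs of mice 4 had r above 0.1, the highest being 0.43 (mice 1 of MI+Val and MI). Pairs with unlike numbers were not compared, so these values cannot show whether the numbers pair mice. The replicate block gave 425 genes by the F test. Tmem182 in MI vs. sham passed in 8 alternatives. All 6 member probes were detected on every array, but the dimmer Pmp22 probe depended on background handling: MI vs. sham was 0.43 in the main setting, 0.33 with an offset of 50, 0.25 with no correction and 0.18 in the deposited values, and MI+Val vs. MI was -0.43, -0.33, -0.25 and -0.17.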
